A study of Mus musculus with 118 samples.

Results

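Somatostatin-expressing (SOM+) interneurons of layer 5 (L5) were compared with those of layer 4 (L4) in primary visual cortex (V1), gene by gene, in single-cell Patch-seq libraries. The labels carry dates but name no recording series. Their dates fall into a first run of 6 days in June and July, called the first series here, and a later run in September, called the second series. The members are the V1 cells of the first series, which holds every L5 cell. A cell was kept if it had at least 1500 genes with a read, no more reads of the excitatory gene Slc17a7 than of the GABA-synthesis genes Gad1 and Gad2 together, and at least 1 Sst read. Of 42 V1 cells in that series 38 were kept, 21 of 23 from L4 and 17 of 19 from L5, and the whole series holds 63 V1 and 55 S1 cells. In Patch-seq a neuron is first recorded electrically, and its cytoplasm is then aspirated through the same pipette for cDNA synthesis. The cells came from adult SOM-Cre/Ai9 mice without further treatment. In these mice a Cre recombinase driven from the somatostatin gene switches on the red marker tdTomato, so a cell that expressed somatostatin only earlier in life is also labelled. The groups used here were V1 L4, V1 L5 and, for comparison, S1 L4 and S1 L5 of primary somatosensory cortex, with 16 kept cells each in the same recording series.

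The labels name no animal, so the cells of a layer were treated as 1 sample, and no p-value or standard error was computed from them. Expression is given as log2(CPM + 1), where CPM is the number of reads of a gene per 1000000 reads of the cell. A layer difference is the mean over L5 cells minus the mean over L4 cells on this scale, and a difference of 2, a 4-fold one, was used as the size threshold. As a check against batches, cells were grouped by the date in their label, called the recording day below. Kept L5 cells came from 4 days, days 3 to 6, with 5, 3, 4 and 5 cells. Those days held 2, 1, 3 and 1 kept L4 cells. The other 14 L4 cells came from days 1 and 2, on which no V1 L5 cell was kept, so for them the layer and the day cannot be told apart.

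Somatostatin interneurons are GABAergic cells that mostly inhibit the dendrites of their targets, and they include Martinotti cells, whose axons climb to layer 1, and cells whose axons stay local. They differ widely in the neuropeptides, adhesion molecules and calcium-binding proteins they make, and the kinds of SOM+ cell present differ between cortical layers. Corticotropin-releasing hormone, prodynorphin and neuropeptide Y are peptides that subsets of these cells make beside somatostatin.

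Sst is the gene that defines the cells, through the Cre line and through the cell filter. Its proximal promoter is shown because its transcription is the common property of both groups. In the RefSeq promoter window (GRCm38.p6, minus strand) the segment at chr16:23890855-23890922 reads as follows, with the cyclic AMP response element in capitals.
Sst upstream region: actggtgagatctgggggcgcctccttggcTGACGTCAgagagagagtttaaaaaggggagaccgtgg
The motif TGACGTCA, which is its own reverse complement, begins 48 bases before the gene start of that RefSeq window. The GENCODE gene used for coordinates elsewhere (chr16:23889573-23890958, minus strand) starts further upstream, so the segment lies within it. It was found in 588 of 32851 promoter windows (1.79%), each of 250 bases before and 50 bases after a start. Among the 50 genes named below, 36 had a window, and the Sst and Ptpru windows held the motif. Sst itself differed little between layers. Its lowest, median and highest level was 6.65, 10.77 and 12.20 in L4 and 5.24, 10.76 and 13.49 in L5, and the layer difference was -0.37 (SD over 4 days 1.08). Gad1 differed by 0.23 and Gad2 by 0.22. Slc17a7 was read in 4 of 21 L4 and 3 of 17 L5 cells.

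Each L4 cell had 320392 to 2728068 gene counts (median 946122) and each L5 cell 97904 to 2368268 (median 1066008). On average 6055 ± 1574 genes were detected per L4 cell and 6272 ± 1799 per L5 cell (SD over cells). At 90000 reads per cell it was 5093 in L4 and 5306 in L5. The ribosomal entry Rn45s took a median of 4.95% of the counts in L4 and 5.90% in L5, and 21.1% in 1 L5 cell. Of the 4 V1 cells left out, 3 had 745 to 1153 detected genes, and the fourth, an L5 cell, had 585 Slc17a7 counts and none of Gad1 or Gad2. Xist was read only in the 3 L4 cells of day 1, with 3243 counts in all. Genes listed as markers of other cell types were also read, for some lists in single cells at high summed levels. Of 7 excitatory neuron markers only Slc30a3 passed the count filter, and their summed level was 0 to 551 CPM in L4 (median 182) and 7.34 to 764 CPM in L5 (median 256). Slc30a3 was read in 20 of 21 L4 cells and all 17 L5 cells, at means of 6.98 and 7.36. Each other marker of that list was read in at most 5 L4 and 3 L5 cells, so these sums do not show widespread excitatory reads. The 8 astrocyte markers summed to 0 to 10910 CPM in L4 (median 104.5) and 0 to 1932 CPM in L5 (median 81.9). The 8 oligodendrocyte markers summed to 0 to 634 CPM in L4 (median 121.5) and 0 to 3870 CPM in L5 (median 170.6). The 8 microglia markers summed to 0 to 1980 CPM in L4 (median 153.2) and 0 to 4017 CPM in L5 (median 25.3). Cldn5, Flt1 and Cdh5 of the endothelial list were at 0 in every cell, as was Cldn11 of the oligodendrocyte list. The part of these genes in the layer differences was not tested.

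Across 6696 genes with at least 32 counts in at least 10 of the 38 cells, 323 (4.82%) were at least 4-fold higher in L5 and 216 (3.23%) at least 4-fold lower. The median difference over all these genes was 0.15. With the further condition that the difference had the same sign in all 4 days with both layers, 73 genes (1.09%) remained on the higher side and 76 (1.14%) on the lower side. Agreement between days was weak for the transcriptome as a whole. Days 3 and 5, which have at least 2 cells of each layer, shared the sign of 50.7% of genes, and the Pearson correlation of their differences across genes was 0.05. Over all genes 10.7% had 1 sign in every day, against 22.6% of the genes at least 4-fold higher and 35.2% of those at least 4-fold lower. These shares are descriptions, since the days themselves enter the overall difference. The counts also depended on which L4 cells were used. With only the 7 L4 cells that shared a day with L5 cells, 3.33% of genes were at least 4-fold higher and 7.72% lower, of 4778 past the count filter. With a pseudocount of 10 in place of 1, which weighs down genes near 0, 27 genes were higher and 16 lower. Day values, or the days with the opposite sign, are therefore given for most genes below.

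The genes given as marks of this layer comparison were Spon1 and Crh on the L5 side and Thsd7a and Crhbp on the L4 side. Spon1 (chr7:113765998-114043370, plus strand), which encodes the secreted matrix protein F-spondin, had a lowest, median and highest level of 0.00, 0.00 and 8.36 in L4 and 0.00, 0.75 and 11.16 in L5. It was absent from most L4 cells and bimodal in L5, and the ranges overlapped. Spon1 was read in 4 of 21 L4 cells, or 19% with an exact (Clopper-Pearson) 95% interval of 5.45 to 41.9, and in 9 of 17 L5 cells, or 52.9% with 27.8 to 77.0. The layer difference was 3.41, and within days 3, 4, 5 and 6 it was 3.86, 3.72, 2.25 and 3.91. The pooled level was 23.2 CPM in L4 (95% Poisson interval 21.3 to 25.2) and 391 CPM in L5 (383 to 400.2). All such intervals cover counting error only, because PCR copies of 1 molecule could not be recognised and cells that share an animal are not independent. They are no comparison of the layers.

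Crh (chr3:19693401-19695396, minus strand) encodes corticotropin-releasing hormone. It had at least 32 counts in 8 cells and so did not pass the count filter. It was read in 5 of 21 L4 cells and 9 of 17 L5 cells, with 63 counts in all of L4 and 4912 in L5, or 2.63 and 255 CPM. Its median was 0.00 in L4 and 0.51 in L5, and its highest level 5.09 in L4 and 10.46 in L5. All L4 cells with Crh reads therefore held few of them. The difference was 3.33, with 4.25, 3.66 and 3.54 on days 3, 4 and 5 and -0.18 on day 6, when the only L4 cell had Crh reads.

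Thsd7a (chr6:12311610-12749410, minus strand), which encodes a membrane protein with thrombospondin type 1 repeats, was read in all 21 L4 cells and 9 of 17 L5 cells. Its levels were 5.24 to 11.17 in L4 (median 9.23) and 0.00 to 9.58 in L5 (median 4.66), so L5 cells reached the L4 range but 8 of them had no read. The difference was -4.89, and it was -5.69, -4.01, -7.65 and -2.30 within the 4 days. Crhbp (chr13:95431371-95444924, minus strand) encodes the secreted protein that binds corticotropin-releasing hormone. It was read in 20 of 21 L4 and 11 of 17 L5 cells, with medians of 9.75 and 8.90. The difference of -2.76 came from L5 cells without a read, as the other L5 cells lay between 7.03 and 11.53. Within days it was -4.66, -0.20, -1.81 and -2.56.

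**Figure D1:**
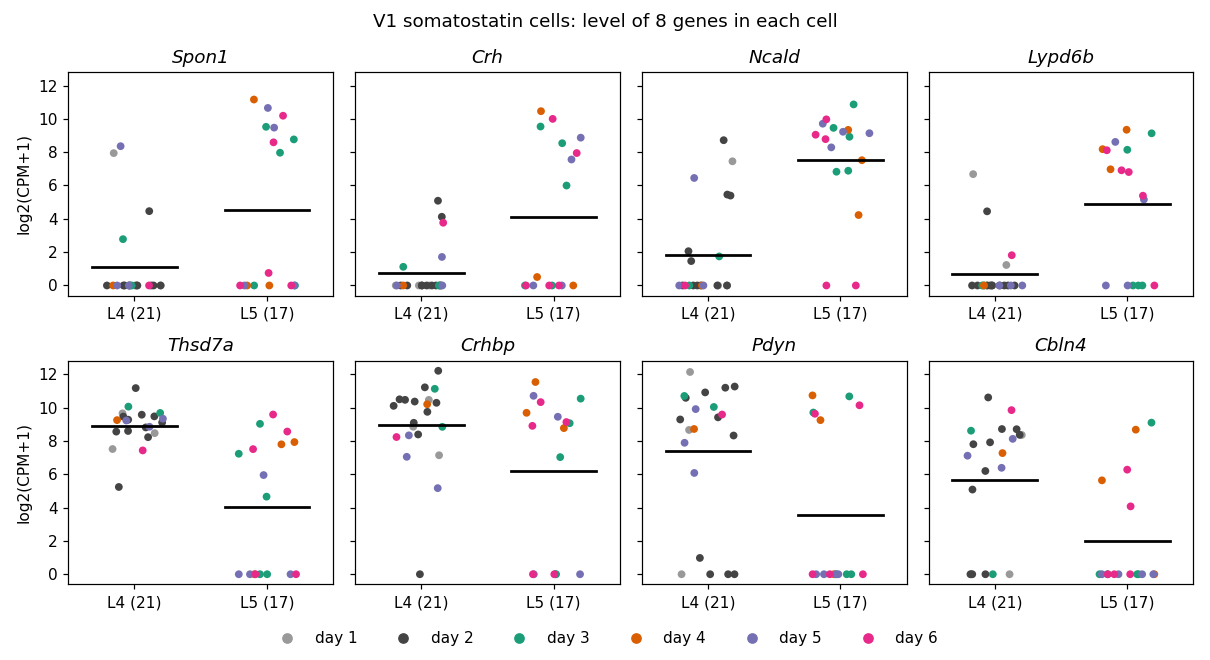
Level, as log2(CPM + 1), of 8 genes in each of 21 V1 L4 and 17 V1 L5 cells; each point is a cell, coloured by its recording day, and the black bar is the mean over cells. Spon1 and Crh are high in some L5 cells and at 0 in others, Ncald has reads in 15 L5 cells, and Thsd7a, Crhbp, Pdyn and Cbln4 fill most L4 cells and are at 0 in part of the L5 cells.

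The 12 genes with the largest differences toward L5 and 1 sign in every day were Ncald (5.70), Lypd6b (4.19), Sulf2 (4.08), Crbn (3.73), Wasf1 (3.53), Spon1, Ralyl (3.25), Ttc33 (3.23), Grik1 (3.12), Ddx1 (3.12), Cstf2t (3.10) and Tmem14c (3.07). The next gene in this order, Arpc5l, was at 3.02. Ncald (chr15:37366175-37792570, minus strand) encodes the neuronal calcium sensor neurocalcin delta. Its lowest, median and highest level was 0.00, 0.00 and 8.72 in L4 and 0.00, 8.92 and 10.87 in L5. It was read in 8 of 21 L4 and 15 of 17 L5 cells, and its difference within days was 7.72, 7.03, 6.94 and 5.56. Unlike Spon1 it was thus read in nearly every L5 cell, although 2 cells of day 6 had no read. The highest L4 cell lay just below the L5 median.

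Lypd6b and the neighbouring gene Lypd6 encode Ly6-family proteins that act on nicotinic acetylcholine receptors. Lypd6b was read in 4 of 21 L4 and 11 of 17 L5 cells, with medians of 0.00 and 6.81. Its day differences were 3.46, 8.17, 3.44 and 3.63. Lypd6 differed by 2.94, with medians of 0.00 and 4.74, and was higher in L5 in all 4 days. Sulf2, which encodes an extracellular enzyme that removes sulfate from heparan sulfate chains, was read in 7 L4 and 14 L5 cells. Its median was 0.00 in L4 and 6.47 in L5, and its day differences of 4.75, 4.64, 6.08 and 5.13 had the second lowest SD of the 12 genes, 0.65, after the 0.51 of Tmem14c.

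Grik1, the kainate receptor subunit GluK1, was read in 14 cells of each layer but at different levels, with medians of 4.81 in L4 and 8.80 in L5. The highest Grik1 level was 9.35 in L4 and 11.28 in L5. Wasf1, an activator of actin branching, was read in all 17 L5 cells, at 6.18 to 9.14. In L4 it spanned 0.00 to 8.15, with reads in 15 of 21 cells. Within days its difference was 3.48, 1.92, 0.87 and 0.78, all below the difference over all cells. The RNA helicase gene Ddx1 behaved alike, with differences of 2.02, 0.97, 0.16 and 0.09 within days. For both genes the layers lay closer together within days than over all cells. Crbn, the substrate receptor of a ubiquitin ligase, the RNA-binding protein gene Ralyl and the polyadenylation factor gene Cstf2t had day differences of 0.76 to 6.07, 2.04 to 6.29 and 0.97 to 4.28.

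The 12 genes with the largest differences toward L4 and 1 sign in every day were Thsd7a, Dmd (-4.56), Ptprd (-4.06), Pdyn (-3.88), Slc20a1 (-3.85), Pde1a (-3.84), Cbln4 (-3.69), Kirrel3 (-3.60), Atp2b1 (-3.45), Lipa (-3.39), Msmo1 (-3.10) and Ano3 (-3.05). Ankrd17 followed at -3.05. Dmd, the gene of the membrane-anchoring protein dystrophin, was read in all 21 L4 cells, at 5.71 to 10.34 (median 8.30), and in 10 of 17 L5 cells, at up to 8.0 (median 3.42). The highest L5 cell thus lay below the L4 median. Its day differences ran from -6.81 to -2.10. Ptprd, a receptor tyrosine phosphatase that organizes synapses, showed the same form over all cells, with medians of 6.96 and 2.06, but its day differences of -6.16, -0.70, -2.47 and -0.01 were close to 0 on the days with 1 L4 cell.

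Pdyn (chr2:129686565-129699844, minus strand) encodes prodynorphin, the precursor of the dynorphin opioid peptides. Its median was 9.29 in L4 and 0.00 in L5, and its highest level 12.14 and 10.73. It was read in 17 of 21 L4 cells (81.0%, 58.1 to 94.6) and 6 of 17 L5 cells (35.3%, 14.2 to 61.7), and the 6 L5 cells with reads were at L4-like levels. The pooled level was therefore less far apart than the mean of logs, 826 CPM in L4 and 481 CPM in L5. Cbln4 (chr2:172036233-172043466, minus strand), a secreted synapse organizer, was read in 15 L4 and 5 L5 cells, with medians of 7.27 and 0.00. Its day differences were -2.49, -2.50, -7.21 and -7.78. Kirrel3, an adhesion molecule of the immunoglobulin family, was read in 18 L4 and 4 L5 cells and differed by -5.97, -2.51, -6.25 and -5.59 within days.

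Other genes of these 12 encode transporters and enzymes. Atp2b1, a plasma membrane calcium pump, was read in all 21 L4 cells, at 7.07 to 10.88, and in 13 L5 cells, at up to 9.43. Slc20a1, a sodium-dependent phosphate transporter, was read in all 21 L4 cells, at 7.56 to 11.69, and in 13 L5 cells, at up to 8.89. Both were lower in L5 in each of 4 days. The calmodulin-dependent phosphodiesterase gene Pde1a had medians of 8.43 and 0.00, and Lipa, the lysosomal acid lipase, of 7.12 and 0.00. The Lipa differences within days ran from -5.67 to -3.74, the narrowest span of the 12 genes.

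**Figure D2:**
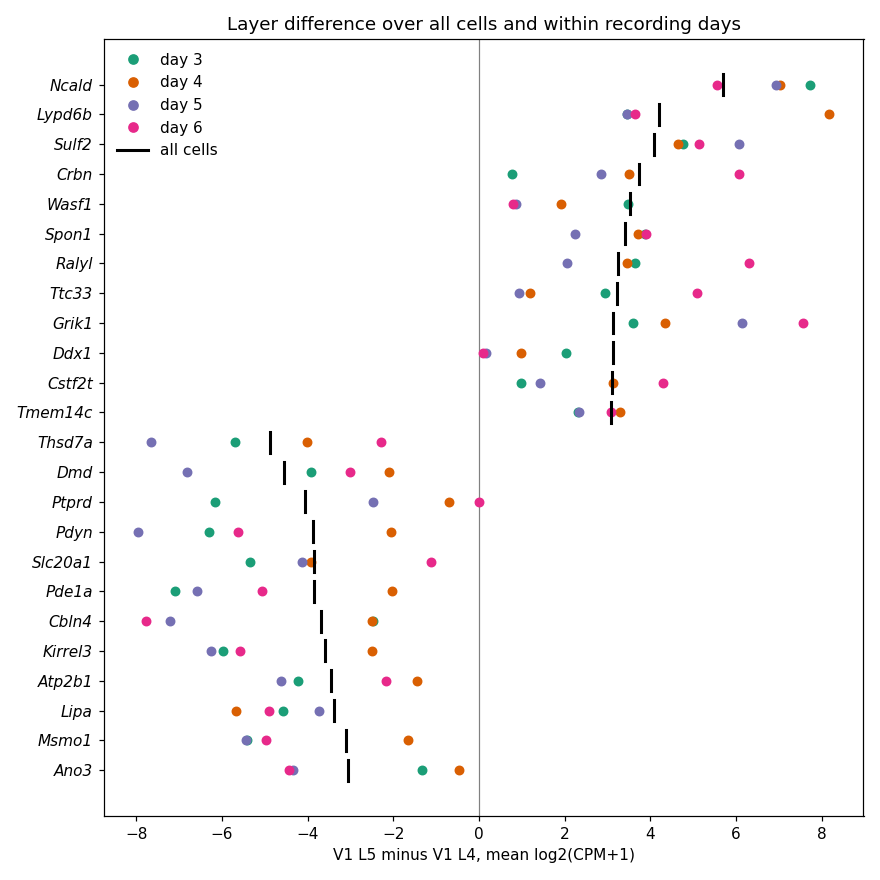
Difference of V1 L5 minus V1 L4 in mean log2(CPM + 1) for the 12 genes on each side with the largest difference among those with 1 sign in every day, ordered by size; points are the recording days with both layers, and black bars the difference over all 38 cells. All points lie on 1 side of 0 by the choice of genes, and they spread from 0.51 (Tmem14c) to 2.90 (Cbln4) as SD over days.

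The L5 cells did not form a uniform group. With at least 32 counts taken as expression, Spon1 was expressed in 8 L5 cells, of which 6 also expressed Crh, 8 Ncald and 7 Sulf2. None of these 8 cells expressed Pdyn, Cbln4, Kirrel3 or Calb2, and 1 expressed Thsd7a. Of the 9 L5 cells without Spon1, 6 expressed Pdyn, 4 Cbln4 and 7 Thsd7a. Spon1 or Crh was expressed in 9 L5 cells and Pdyn or Cbln4 in 6, no cell had a gene of both pairs, and 2 had neither. This pairing of genes was chosen after the values were seen. In L4 the Spon1 or Crh pair was expressed in 3 cells and the Pdyn or Cbln4 pair in 17, and 2 cells had both.

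Both patterns occurred on several days. L5 cells with Spon1 numbered 3, 1, 2 and 2 on days 3 to 6, and L5 cells with Pdyn 2, 2, 0 and 2. The day 5 differences of Pdyn (-7.96) and Cbln4 (-7.21) therefore stand against 4 L5 cells of which none expressed Pdyn. Crh and Crhbp, the hormone and its binding protein, were expressed together in 2 of 17 L5 cells, while 5 expressed only Crh and 9 only Crhbp. In L4 the numbers were 1, 0 and 19 of 21. Ncald crossed the division, as it was expressed in all 8 L5 cells with Spon1 and in 7 of the 9 without.

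**Figure D3:**
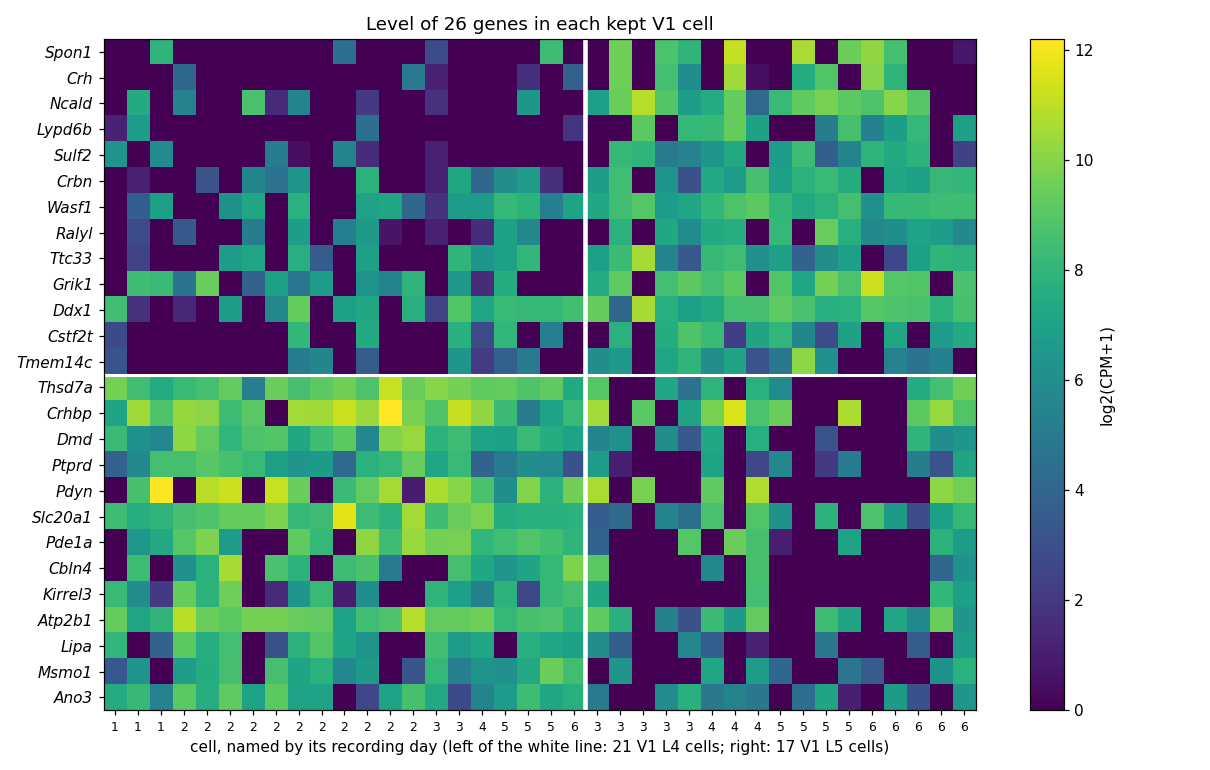
Level, as log2(CPM + 1), of 26 genes (rows) in the 38 kept V1 cells (columns, named by recording day); L4 cells are left and L5 cells right of the vertical white line, and genes on the L5 side are above the horizontal one. L5 cells with high Spon1 and Crh are dark for Pdyn, Cbln4 and Kirrel3, and the L5 cells that are bright for these 3 genes are dark for Spon1 and Crh.

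The gene lists were chosen with earlier results of these data known. Their shares stand beside the background of 4.82% higher and 3.23% lower as descriptions only. Among lists with at least 4 genes past the count filter, the largest share was that of secreted matrix and synapse-organizing proteins, where 22 of 40 genes passed, 2 were at least 4-fold higher and 7 at least 4-fold lower in L5 (31.8%). Their median difference was -0.59, beside 0.15 for all genes, but it was 1.29 on day 6 and 0.17 in S1. The members named here are Thsd7a and Cbln4, Olfm3 (-4.30), which encodes an olfactomedin, and on the higher side Spon1 and Fstl5 (3.48), which encodes a follistatin-like protein. Olfm3 was read in 16 L4 and 4 L5 cells. Olfm3 and Fstl5 had the opposite sign on day 4, with 4.18 and -3.76. The list includes Spon1 and Thsd7a, which were given as marks of this comparison.

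Among 18 cadherins and receptor tyrosine phosphatases past the filter, 1 was at least 4-fold higher and 4 lower (22.2%). These included the cell adhesion genes Cdh11 (-3.47) and Cdh7 (-2.31) and the phosphatase gene Ptpru (-3.05). Cdh7 was lower in all 4 days, with differences from -3.17 to -2.03, whereas Ptpru was at 4.72 on day 6 and Cdh11 at 0.18 on day 4. Of 9 genes of the dystrophin complex past the filter only Dmd was past the threshold, and 3 had a difference above 0.

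On the lists of ion channels and receptors few genes were past the threshold, beside 4.82% higher and 3.23% lower of all genes. Of 23 sodium, calcium and HCN channel genes past the filter 3 were lower (13%) and 0 higher. They were Cacna1g (-3.83), the pore of a low-threshold T-type calcium channel, Cacna1b (-2.80), that of the N-type channel, and Cacng5 (-2.91), a gene of the gamma subunit family. Cacna1b was lower in L5 in all 4 days, whereas Cacna1g was at 1.29 on day 3 and Cacng5 at 1.49 on day 6. Of 22 potassium channel genes past the filter, 2 were lower (9.09%) and 0 higher. Kcnt1 (-2.11), a sodium-activated channel, was at 1.16 on day 3, and Dpp10 (-2.54), an auxiliary subunit of A-type channels, was lower in all 4 days. Below the filter only Kcnmb2 of this list was past the threshold, at 3.24. It was read in 2 L4 and 9 L5 cells and was higher in L5 in all 4 days. Among 16 GABA genes past the filter 3 were higher (18.8%) and 0 lower, among them the GABA-A receptor subunit genes Gabra3 (3.13) and Gabra4 (2.75). Day 4 had the opposite sign for both, with -1.23 and -4.64. Of 17 glutamate receptor genes only Grik1 was past the threshold (5.88% higher, near the share of all genes), and of 7 acetylcholine and monoamine receptor genes none was.

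Of 20 transcription factor genes of interneurons past the filter 2 were higher (10%) and 3 lower (15%). Sox6 (-2.63) and Maf (-2.72), which act in the development of SOM+ cells, and Pou3f3 (-2.61) were on the lower side, and Bcl11b (2.18) on the higher side. Sox6 was lower in all 4 days, with differences from -3.90 to -0.06. Maf was at 0.92 on day 6 and Pou3f3 at 2.90 on day 4. Bcl11b had no common sign, with -0.16, 0.47, -1.22 and 3.86 within days. Bcl11b was also on the list of L5 excitatory markers, together with Rbp4 (2.63), the retinol-binding protein. Rbp4 was read in 15 of 21 L4 cells and 16 of 17 L5 cells and was higher in L5 in all 4 days. Of the rest of that list, Fezf2 and Parm1 were read in 3 and 0 of the 38 cells. Deptor was read in 3 L4 and 2 L5 cells, with a difference of 0.53. The summed level of the list had a median of 109.2 CPM in L4 and 276 CPM in L5. Whether Rbp4 and Bcl11b reads came from neighbouring L5 cells was not tested.

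Few neuropeptide genes were measured well enough to compare. Of 17, 4 passed the filter, and beside Pdyn none of them was past the threshold. Npy differed by -1.69 and Cort by -0.03. Of 22 peptide receptor and binding protein genes 4 passed, and only Crhbp was past the threshold. Among 12 calcium-binding and calcium sensor genes past the filter 1 was higher, Ncald, and 1 lower, the calretinin gene Calb2. Below the filter only Kcnip4 of this list was past the threshold, at 2.22, with reads in 4 L4 and 8 L5 cells. On the list of semaphorins and other guidance genes 16 passed the filter, and 2 were higher and 0 lower. Those 2 were Lypd6b and Lypd6, which are not guidance cues. No semaphorin, ephrin or slit gene or gene of their receptors that passed the filter was past the threshold. Below the filter, Sema3e differed by 3.30, read in 1 L4 and 10 L5 cells. The guidance receptor gene Unc5d differed by 2.28, read in 1 L4 and 8 L5 cells. Both were higher in L5 in all 4 days and in S1, and no list member below the filter was at least 4-fold lower. None of 20 immediate early and stress genes was past the threshold, with a median difference of -0.36, and Fos differed by -0.44.

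**Figure D4:**
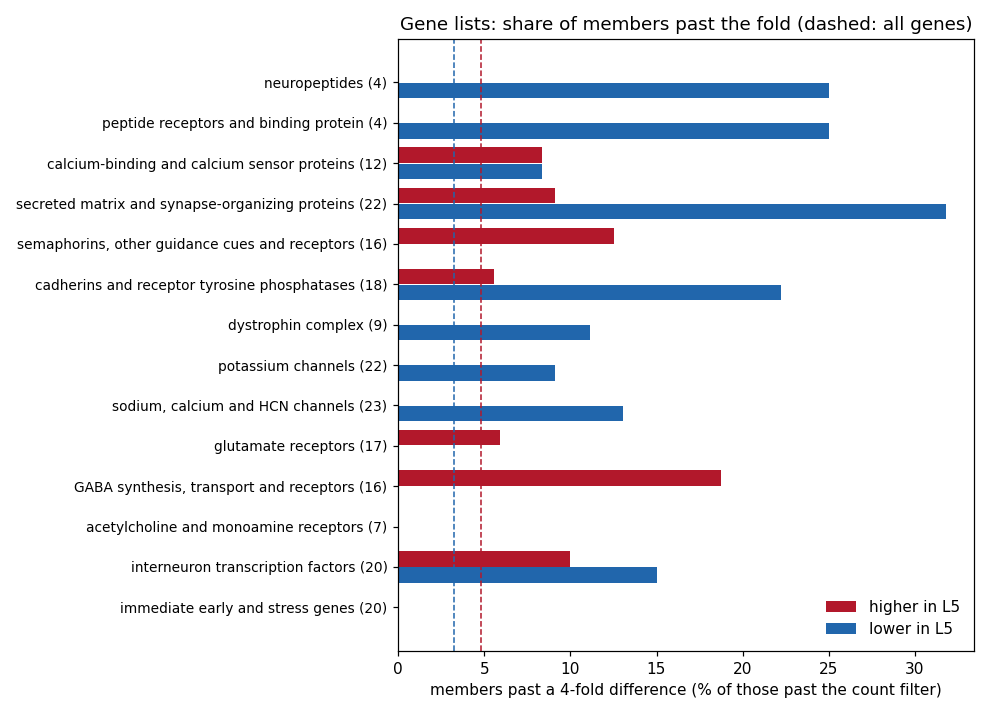
Share of the members of 14 gene lists (number past the count filter in brackets) that were at least 4-fold higher (red) or lower (blue) in V1 L5 than in V1 L4, in percent; dashed lines give the shares over all 6696 genes, 4.82% and 3.23%. The bar for secreted matrix and synapse-organizing proteins lower in L5 reaches 31.8%, and lists with 4 genes move by 25 percentage points with each gene. The lists were chosen with earlier results of these data known.

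Somatostatin types of a reference atlas are named after genes, and 30 such genes are in the count table. Only Calb2, Hpse and Cbln4 passed the filter, and Calb2 and Cbln4 were at least 4-fold lower in L5. Calb2 was read in 11 of 21 L4 and 3 of 17 L5 cells, with a difference of -3.07 but a value of 2.03 on day 4. Hpse, which encodes heparanase, was read in 9 L4 and 4 L5 cells and Pdlim5 in 7 and 3. Crhr2, a receptor for peptides of the corticotropin-releasing hormone family, was read in 1 L4 and 4 L5 cells, and Sema3c in 2 and 5. Chodl, Tac1, Tacr3, Myh8, Glra3, Ptgdr, Tac2 and Myh4 were at 0 in all 38 cells, which allows a share of up to 7.89% of cells with a read, for counting error only. With each cell thinned to 90000 reads, Crh was read in 3 L4 and 9 L5 cells, Calb2 in 11 and 3, and Spon1 in 4 and 8, close to the numbers at full depth.

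The same layer difference was computed in S1, in 16 L4 and 16 L5 cells that share no cell with the V1 comparison but do share recording days. Spon1 differed by 7.09 and was read in 5 L4 and 14 L5 cells, and Crh by 4.28, read in 0 and 9 cells. Crhbp differed by -5.68 and Thsd7a by -3.36. Among the 12 genes listed above for V1 L5, 11 were also higher in S1 L5 and 5 of them at least 4-fold, namely Spon1, Ralyl (3.78), Cstf2t (3.30), Ncald (2.84) and Wasf1 (2.22). Tmem14c was at -0.09. Ncald was read in 12 S1 L4 cells and 16 S1 L5 cells, and was higher in L5 on 3 of 4 S1 days. Among the 12 listed for V1 L4, 11 were also lower in S1 and 8 at least 4-fold, with Dmd at -4.09, Ptprd at -4.00, Cbln4 at -3.09 and Pdyn at -2.73. Msmo1, an enzyme of cholesterol synthesis, was at 0.88 in S1. Lypd6 (4.45), Gabra4 (3.22), Olfm3 (-4.09) and Ptpru (-4.42) were also past the threshold in S1, while Bcl11b was at -0.01 and Cdh11 at 0.09.

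Over all 5940 genes past the filter in both areas, the agreement was smaller. Of 309 genes at least 4-fold higher in V1 L5, 71.8% were above 0 in S1, beside 61.4% of all genes. Of 182 at least 4-fold lower, 60.4% were below 0, beside 38.6%. A 4-fold difference of the same sign was found in 11% and 12.6% of them, beside 5.34% and 1.63% of all genes. Of the higher genes with 1 sign in every V1 day, 46 of 68 (67.6%) were above 0 in S1. Of the lower genes with 1 sign in every V1 day, 43 of 69 (62.3%) were below 0. The Pearson correlation of the V1 and S1 differences across genes was 0.21. Genes are not independent replicates, and both areas share their L5 recording days.

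**Figure D5:**
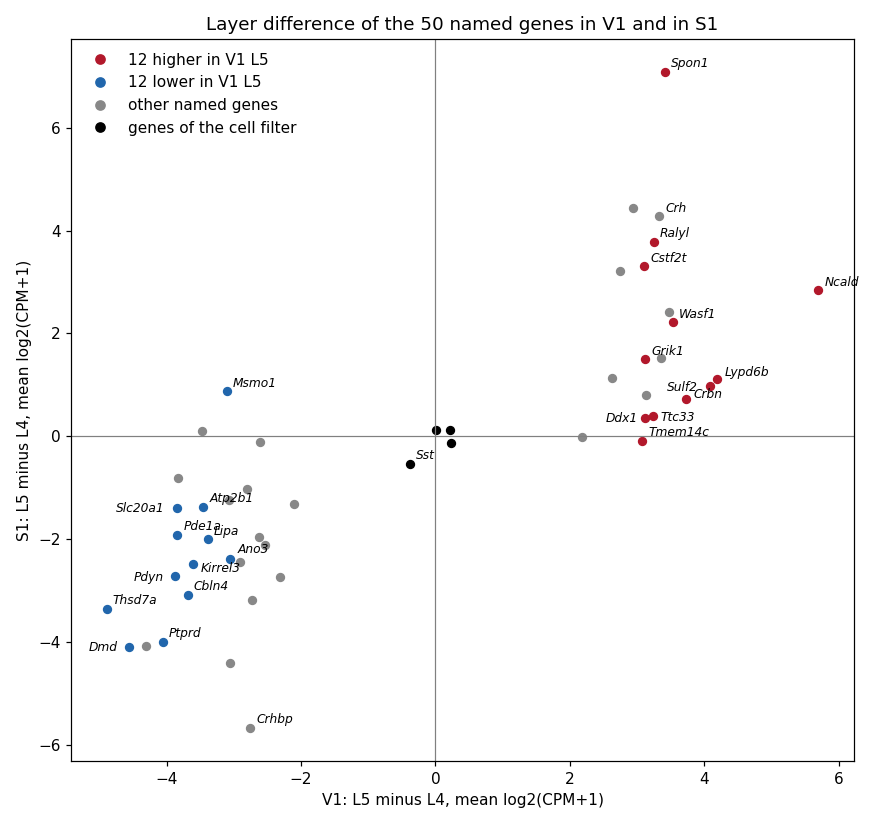
Difference of L5 minus L4 in mean log2(CPM + 1) in V1 (horizontal axis) and S1 (vertical axis) for the 50 named genes; each point is a gene, red for the 12 higher and blue for the 12 lower genes in V1 L5 with 1 sign in every day. Msmo1 and Tmem14c are the members of these 24 with the opposite sign in S1, and Spon1 (7.09) and Crhbp (-5.68) lie farthest from 0 in S1.

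The V1 L4 cells of the second series, 21 kept cells from later days without L5 cells, gave a further level for the L4 side. Their mean lay on the L4 side of the midpoint between both layers for all 12 genes lower in L5 and for 10 of the 12 genes higher in L5. For Thsd7a it was 8.03, beside 8.90 in first-series L4 and 4.01 in L5, and for Dmd 8.04, beside 8.08 and 3.52. For Spon1 it was 1.20, beside 1.12 and 4.53. Crh was at 0 in all 21 of these cells. Ncald was less far apart, with reads in 16 of 21 cells and a mean of 4.74, beside 1.84 in first-series L4 and 7.54 in L5. Ncald and Crbn, which was at 5.49 beside 2.65 and 6.38, were the exceptions among the 12 genes higher in L5. The same count was not made over all genes, so these counts have no background.

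As a summary over many genes, cells from different days were correlated over the 1000 most variable genes. The mean Pearson correlation was 0.35 ± 0.10 between L5 cells (SD over 214 pairs), 0.30 ± 0.09 between L4 cells (296 pairs) and 0.28 ± 0.09 between L5 and L4 cells (327 pairs). For L5 cells of days 3, 4, 5 and 6 the correlation with other L5 cells exceeded that with L4 cells by 0.06, 0.06, 0.08 and 0.06. With only the L4 cells of days that also hold L5 cells, the excess was 0.02, beside 0.07 with all pairs. Pairs share cells and depth differs between cells, so these values are descriptions.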

How the data were processed

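RNA was measured by Patch-seq in single cells of V1 and S1, and the groups were taken from the region and layer labels. The authors made cDNA by a protocol derived from Smart-seq2, which has no molecular identifiers, sequenced single ends of 75 bp and aligned them to mm10 with STAR 2.4.2a, after demultiplexing with bcl2fastq 2.20 according to the submitters' processing notes. The authors deposited read counts per gene without normalization, and RPKM values that rpkmforgenes computed on RefSeq genes. All results rest on the deposited counts, and RPKM values entered 1 alternative. Entries that share a symbol were summed (24490 entries, 23998 symbols).

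Counts were scaled to CPM of the cell and expressed as log2(CPM + 1). Genes needed 32 counts in 10 cells. Since labels name no animal, p-values were not computed, and dates served only as recording days, which may share an animal. Named genes were Spon1, Crh, Crhbp and Thsd7a, the 12 largest differences each way with 1 sign in every day, up to 4 members of each list past a 4-fold difference, and the genes of the cell filter. A gene that this rule selects is not reported here. The members and the lists were chosen with earlier results of these data known. Variable genes followed the rule of the study (slope 1.5, offset 0.02). Thinning drew 90000 reads per cell without replacement (random seed 1). Functions were tested on simulated data. Coordinates are from GENCODE M21 on GRCm38. TMM scaling used edgeR 4.0.16 under R 4.3.3. All else ran in Python 3.11.15 with SciPy 1.17.1, pandas 2.3.3 and NumPy 2.4.6, and plots were drawn with matplotlib 3.10.9. Electrophysiology and the assignment to reference types were not analysed here.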

Additional observations from a re-analysis of the deposited data

Results flagged for a closer look

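For the 50 named genes the 4 day differences of V1 L5 minus V1 L4 were examined for a day far from the others. For 4 normal values of equal spread, chance alone gives such a day in about 1 of 20 groups. That rate need not hold here, since the days rest on unequal numbers of cells and many genes were chosen by these differences. Such a day was found for 5 genes. Spon1 had a smaller difference on day 5 (2.25) than on the other days, when 1 of 3 L4 cells had a high Spon1 level. Crh was at -0.18 on day 6. Lypd6b was at 8.17 on day 4, above the other days. Msmo1 was at -1.66 on day 4, nearer to 0 than on the other days. Cacng5 was at 1.49 on day 6, opposite to the other days. Days 4 and 6 each rest on 1 L4 cell.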

How the results depend on the processing

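The share of genes past the 4-fold threshold depended strongly on the scale and on the cells used. Genes at least 4-fold higher in L5 were 4.82% of those tested, 8.96% with 3000 or more detected genes per cell, 0.403% and 13.5% with pseudocounts of 10 and 0.1, 2.43% among genes with any count, 5.24% with 32 counts in 20 cells (with fewer genes tested), 2.63% with log2(RPKM + 1), 16.9% as medians over cells, 3.33% with L4 cells of shared days only and 2.61% with L4 cells of both series. Genes at least 4-fold lower were 3.23%, and 0.239% and 8.44% with these pseudocounts, 1.56% with any count, 3.02% with 20 cells, 0.881% with RPKM, 11.3% as medians, 7.72% with shared days and 8.38% as the mean of within-day differences. With 1 sign in every day the higher genes were 1.09%, and 2.10% with 3000 genes, 0.179% and 1.73% with the pseudocounts, 0.678% with any count, 0.772% with 20 cells, 0.672% with RPKM, 0.631% with both series and 2.46% as the mean of within-day differences. The lower genes with 1 sign in every day were 1.14%, and 0.616%, 0.164%, 2.85%, 0.497%, 1.45%, 0.388% and 0.750% with the first 7 of these settings in the same order, 2.08% as medians, 4.46% with shared days and 4.66% as the mean of within-day differences. TMM scaling gave 5.08% higher and 2.87% lower genes.

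Leaving out each recording day gave 3.26% (without day 2) to 9.18% (without day 5) higher genes, and 7.75% without day 3. It gave 3.55% to 6.03% lower genes, the latter without day 2, and 5.30% without day 6. With 1 sign in every day the shares were 1.17% to 2.63%, above 1.5 times the value of all days without days 3, 4, 5 or 6, and 1.25% to 3.21%, likewise without days 2, 4, 5 or 6. Leaving out any of days 3 to 6 leaves fewer days with both layers, so the sign condition is then easier to meet. The S1 share with the same sign was 71.8% of the higher and 60.4% of the lower genes, beside 61.4% and 38.6% of all genes. It was 62.5% and 50.4% as the mean of within-day differences, beside 57.9% and 42.1% of all genes, and 92.6% and 100% at a pseudocount of 10, beside 58.1% and 41.9%. Leaving out each day gave 60.6% to 71.7% and 52.2% to 60.3%, beside 54.1% to 61.9% and 38.1% to 45.9% of all genes. The 60.6% was found without day 4, beside 54.1% of all genes. The excess correlation of L5 cells was 0.0659, and 0.0816 with Spearman's rho and 0.0207 with L4 cells of shared days only. The causes were not tested. Of 900 alternative differences of the 50 named genes, 65 moved by more than their SD over days, and no difference past the 4-fold threshold changed sign. Most of these genes were chosen for a large difference in the same cells that the alternatives reuse. A kept sign was therefore likely beforehand and is no independent check. The SD over days is also a wide limit, with a median of 2.44 over all genes and 6.06 for Olfm3.

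No paired analysis was possible because the labels give no animal and no replicate number shared between layers. The recording day is the only match, and the mean of within-day differences uses it. Only 7 L4 cells share a day with L5 cells, and 2 days hold 1 L4 cell each, so the within-day values are imprecise. A single cell yields many zeros, and a gene without a read cannot be told from one expressed below detection. The lack of animal labels leaves no replicate error between animals.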

Other observations

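With a pseudocount of 10, which gives less weight to the presence or absence of a few reads, 27 genes were at least 4-fold higher and 16 at least 4-fold lower in V1 L5. In S1, on the same scale, 25 of the 27 were also higher in L5 and all 16 were also lower, beside 58.1% and 41.9% of all genes. The following genes were chosen after their values were seen, and they were not named above. Their differences are on the log2(CPM + 10) scale. On the higher side they included Hsph1 (2.44), a heat shock protein, Ankrd46 (2.41), Rab3c (2.24) and Rab18 (2.13), small GTPases of vesicle traffic, and Cct7 (2.22), a subunit of the chaperonin that folds actin and tubulin. Brinp1 (2.43) and Zfp706 (2.19) were below 0 in S1, at -0.35 and -0.56. Hsph1, Ankrd46, Rab18, Cct7 and Brinp1 were higher in L5 on only 3 of the 4 days, and Rab3c and Zfp706 on 2. Btrc (2.03) and Sgtb (2.02) were higher on all 4. On the lower side the genes were Pcdh18 (-2.71), a protocadherin, Reln (-2.31), the secreted protein reelin, Ankrd17 (-2.04) and A330076H08Rik (-2.03). Pcdh18 and Reln were lower in L5 on 3 of the 4 days, and Ankrd17 and A330076H08Rik on all 4. Pcdh18 was read in 19 of 21 L4 and 6 of 17 L5 cells, and its S1 difference was -1.25. Hsph1 was read in 17 of 21 L4 and all 17 L5 cells. Of the 27 higher genes 12 had 1 sign in every day, as did 11 of the 16 lower genes. The share over all genes was 10.7% with a pseudocount of 1 and was not computed with a pseudocount of 10. These counts are descriptions, since the days enter the difference by which the genes were chosen.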
